A study of Oreochromis niloticus with 12 samples.

Results

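Fast muscle of wild Nile tilapia (Oreochromis niloticus) was described from 6 RNA libraries, 1 from each of 6 females labelled Wild, out of the 12 libraries of the series. The members were chosen by that label alone and are called here by their labels W53, W63, W66, W68, W70 and W72. All 6 fish were 5 months old. Wild is the entry of their treatment label, and no other treatment is stated for them. The other 6 libraries come from domesticated fish that carry the same numbers, and they were not analysed here. The muscle was stored in DNA/RNA Shield, total RNA was depleted of ribosomal RNA with Ribo-Zero Gold, and directional libraries were read on 1 HiSeq4000 lane. Each fish gave 1 library, so that a difference between fish and a difference between libraries cannot be told apart.

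Fast muscle is the pale bulk of the fish trunk, used for short bursts of swimming. Its fibres are packed with sarcomeres, in which myosin heads pull on actin filaments while titin holds the filaments in register, and each contraction is started by calcium released from the sarcoplasmic reticulum. Phosphocreatine and glycolysis supply most of the ATP of such bursts, and parvalbumin takes up calcium again. The tissue also holds connective tissue, vessels, nerves and immune cells, whose RNA enters a bulk library. In such a library fewer cells of a type and less RNA per cell cannot be told apart.

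The deposited counts were added over the transcripts of each of 42609 genes, of which 30860 had a count in at least 1 wild fish. Gene counts numbered 3395622 in W66 at the lowest and 8472454 in W68 at the highest, with a median of 6245110. Of the aligned reads, 45.2 to 57.7% were listed as not unique and 7.93% (W53) to 19.4% (W70) as lying in no annotated feature. The label of the tissue was checked against fibre markers. The 16 genes of the fast fibre list summed to between 82709 and 461267 CPM (counts scaled to a common library size) in the 6 fish, and the 19 genes of the slow fibre list to between 58.1 and 255 CPM. After this scaling CPM do not have the same total in each fish. Over all 9651 measured genes, defined below, they summed to 628368 in W70 and 1681380 in W63. A sum in CPM is therefore not a share of counts. Of the slow list, the oxygen store myoglobin (mb) had 11.7 to 110 CPM. The 4 slow genes at 0 in every fish, tnnt1, tnnt2a, tnnt2b and tnni1a, each have more than 1 annotated transcript. So does mybpc2a, the 1 fast gene at 0. Genes of this kind hold few of the counts, so the gap between the lists is not a measure of fibre content.

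Among the genes that the deposited counts cover well, a small number held much of the counts, led by genes of the contractile apparatus and of energy supply. The 10 genes with the highest mean share held 42.2 ± 8.59% of gene counts (SD, n = 6), and 17 genes held 50% of them. The top 10 held 43.7% in W53, 51.8% in W63, 29.5% in W66, 46.3% in W68, 34.1% in W70 and 47.9% in W72. W63 was the most concentrated library and W66 the least. These are shares of reads, and a long transcript gives more reads per molecule, so the order below does not rank RNA molecules. Transcript lengths were not used here. The order also leaves out most genes with more than 1 annotated transcript. Only 8.17% of such protein-coding genes were measured by the rule given below, against 48.2% of those with 1 transcript. Each of the 20 genes with the highest mean share has 1 annotated transcript. The fast fibre gene atp2a1, with 2 transcripts, had 38 counts over the 6 fish. The order and the concentration are therefore those of the counted genes, not of all genes of the muscle.

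The gene of titin (ttn.1), the giant spring of the sarcomere, had the highest mean share, 9.45 ± 2.43% (SD, n = 6). Its share was 6.73% in W53, 10.7% in W63, 10.2% in W66, 9.02% in W68, 6.93% in W70 and 13.1% in W72. A fast skeletal myosin heavy chain gene, LOC100712344, followed with 8.33 ± 2.11%. Next came the creatine kinases of muscle, which pass phosphate between phosphocreatine and ATP: ckma held 4.42 ± 1.02% and ckmb 3.82%. Skeletal actin (acta1b) held 3.93 ± 2.13%, and it split the fish into W66 and W70 with 1.25 and 1.64% and the other 4 with 3.68 to 6.23%. The glycolytic enzyme gapdh varied as widely, with 0.789% in W66, 2.47% in W53, 2.48% in W72, 4.37% in W70, 5.62% in W63 and 6.99% in W68.

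Of the remaining genes among the 20 most abundant, mylpfa and mylz3 encode light chains of fast myosin, aldoab, eno3 and pygma encode enzymes of glycolysis and glycogen breakdown, and actn3b encodes the actinin of the Z-disc. W66 had the lowest share of each of the 3 enzymes, with 0.340% for aldoab, 0.113% for eno3 and 0.228% for pygma. W68 had the highest share of each, with 2.47%, 2.20% and 1.37%. Parvalbumin beta (LOC100707505) also spread widely, with 2.14% in W63 against 0.0940% in W70 and 0.154% in W66. Ribosomal RNA remained as LOC112843668 with 1.64 ± 0.700%, and a small nucleolar RNA, LOC112847244, reached 1.74% in W66 and 0.0452% in W53. The 20 also hold 2 further fast myosin heavy chain genes, described below, and LOC109201788, LOC100690064 and LOC100697135, for which the sources used here give no product name.

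**Figure D1:**
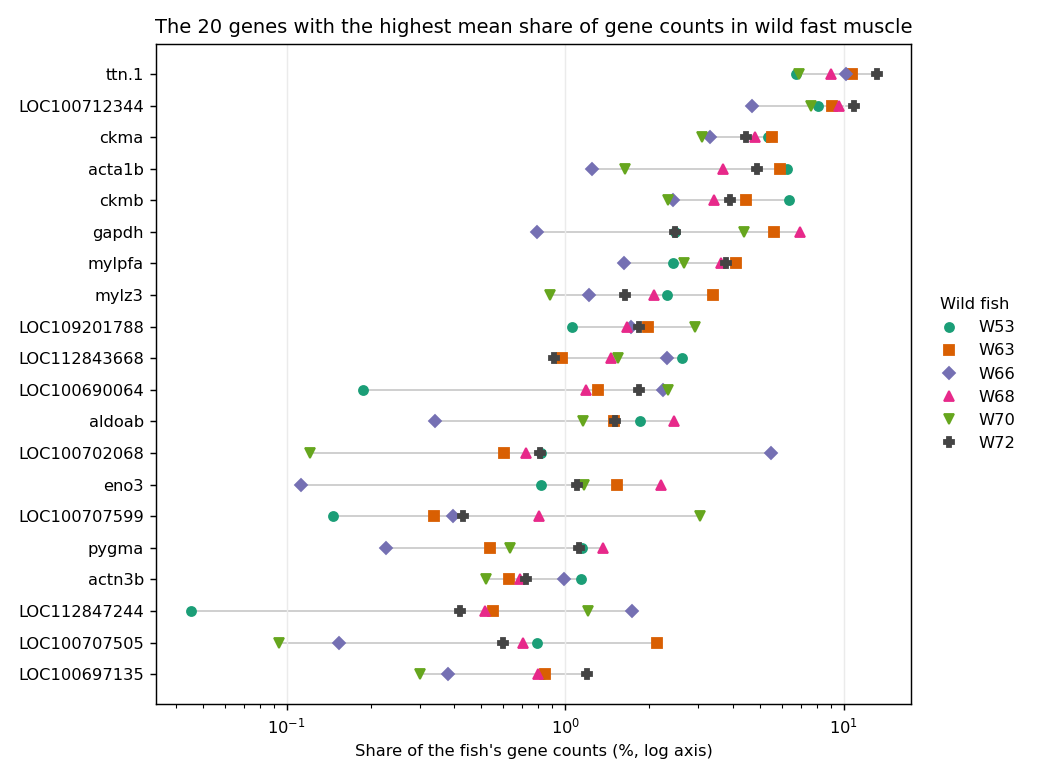
Share of each fish's gene counts (percent, log axis) held by the 20 genes with the highest mean share, with 1 point per wild fish and a grey line over the range. Titin lies between 6.73 and 13.1%, while enolase (eno3) runs from 0.113% in W66 to 2.20% in W68.

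The fast myosin heavy chain genes differed between fish in which copy was counted. Myosin heavy chain is the motor protein of the thick filament, and fish carry several fast skeletal genes for it side by side. The 7 protein-coding genes among 8 neighbours on linkage group 4 are all named fast skeletal myosin heavy chain, and this set was put together after its values were seen. Together they held 9.34% of gene counts in W53, 10.8% in W63, 12.9% in W66, 11.2% in W68, 10.9% in W70 and 12.6% in W72, a mean of 11.3 ± 1.30% (SD, n = 6). On the scaled level the sum was less even, with 69925 CPM in W70 at the lowest and 183089 CPM in W63 at the highest. The fifth gene of the row, LOC100712344, made up 83.8 to 86.7% of the set in W53, W63, W68 and W72. It made up 70.4% in W70 and 36.3% in W66.

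In W66 the other 6 genes held more of the set, 63.7%, than this one, mainly through its neighbours before it in the row. LOC100702068 made up 42.5% of the set in W66 and LOC102083013 12.7%, while in the other 5 fish LOC100702068 made up 1.12 to 8.77% and LOC102083013 0.292 to 3.41%. In W70 the last gene of the row, LOC100707599, made up 28.1%, against 1.57 to 7.19% in the other 5 fish. The first gene of the row, LOC100689722, had the largest variation for its level of all genes of at least 5 CPM. Its levels were 3474 CPM in W63, 1215 in W66, 459 in W72, 158 in W53, 18.2 in W68 and 11.5 in W70. The second gene, LOC100698204, had 3264 CPM in W66, 2726 in W63, 1431 in W72, 177 in W53, 64.4 in W68 and 21.1 in W70. The sixth, LOC100706261, was highest in W72 with 1876 CPM and lowest in W70 with 55.3 CPM. Reads that match several copies equally may have been dropped or misplaced in the counting, so the split between such similar genes is uncertain.

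**Figure D2:**
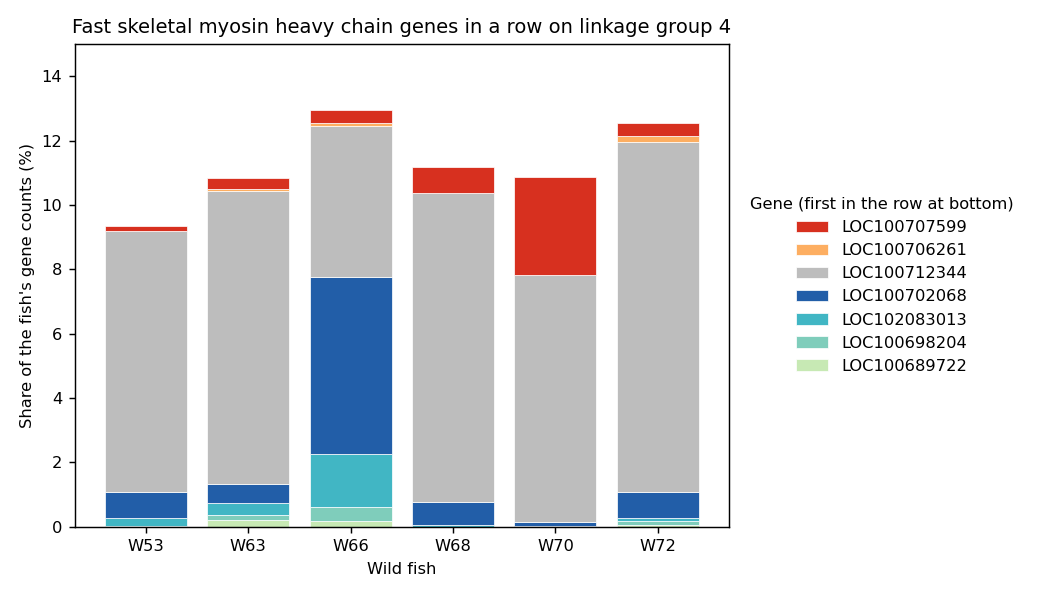
Stacked share of each wild fish's gene counts (percent) held by 7 fast skeletal myosin heavy chain genes that lie in a row on linkage group 4, the first gene of the row at the bottom of each bar. The bars end between 9.34 and 12.9%, while the dark blue copy (LOC100702068) is broad in W66 and the red copy (LOC100707599) in W70.

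A fast light chain gene and a second actin gene showed ranges of the same order. The regulatory light chain gene mylpfb, a paralogue of mylpfa, had 572 CPM in W66, 409 in W68, 103 in W70, 34.1 in W63, 13.9 in W53 and 6.12 in W72. The cardiac-type actin gene actc1b had 3775 CPM in W63, 678 in W68, 467 in W53, 141 in W72, 49.1 in W70 and 6.29 in W66. By likeness of its log2 levels over the 6 fish, the muscle caveolin gene cav3 was closest to actc1b (Pearson r = 0.99, n = 6 fish, a description only, as the closest of 6116 genes), with 153 CPM in W63 and 16.4 in W66.

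Protein-coding genes held 91.6 to 97.0% of gene counts, a mean of 95.2 ± 2.09% (SD, n = 6). Genes of ribosomal RNA held 1.28% in W72 at the lowest and 3.68% in W53 at the highest, and long noncoding RNA 0.514 to 1.29%. Of the 657 ribosomal RNA genes, 44 had a count, and reads listed as not unique were left out. The share is therefore not a measure of all ribosomal RNA left after depletion. No gene of the mitochondrial genome is among the rows. Small nucleolar RNAs, which guide the chemical modification of ribosomal RNA, and small nuclear RNAs, which work in splicing, varied far more than these classes. The 179 small nucleolar RNA genes held 0.0960% of gene counts in W53, 0.749% in W72, 0.849% in W68, 0.862% in W63, 1.81% in W70 and 3.26% in W66. The 439 small nuclear RNA genes, of which 61 had a count, held 0.0142% in W53, 0.0794% in W63, 0.0833% in W72, 0.141% in W68, 0.30% in W70 and 0.499% in W66. W53 was the lowest and W66 the highest library for both.

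The same extremes held for most of these genes. Of the 65 small nucleolar RNA genes measured, 58 were highest in W66 and 61 lowest in W53, where over all 9651 measured genes 17% were highest in W66 and 23.3% lowest in W53. All 10 small nuclear RNA genes measured were highest in W66 and lowest in W53. The protein-coding gene LOC100690064 also had a low value in W53, with 1819 CPM against 15081 to 22209 CPM in the other 5 fish, and the gene closest to it over the 6 fish was a small nucleolar RNA, LOC112847245 (r = 0.99, n = 6 fish, a description only), with 9.52 CPM in W53 and 169 to 331 CPM in the others. The share of reads in no annotated feature was lowest in W53 too, 7.93%, and 14.3% in W66. The part of RNA quality or fragment size in these ranges was not tested.

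**Figure D3:**
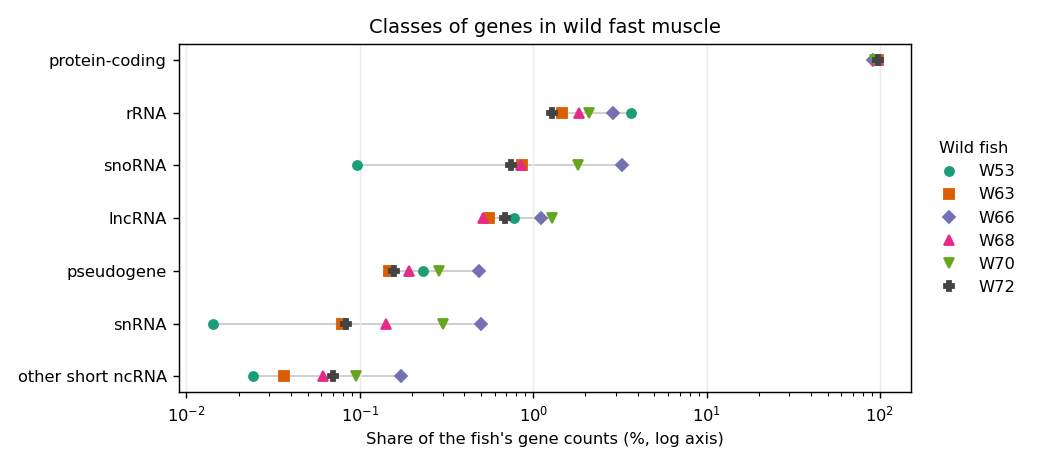
Share of each fish's gene counts (percent, log axis) by class of gene, with 1 point per wild fish. Small nucleolar RNA runs from 0.0960% in W53 to 3.26% in W66 and small nuclear RNA from 0.0142 to 0.499%, while protein-coding genes stay between 91.6 and 97.0%.

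For the variation between fish, counts were turned into CPM of a library size scaled by the trimmed mean of M-values. Scaling moved the library sizes by -0.76 (W63) to 0.64 (W70) on the log2 scale, so that the CPM of a gene depends on this step while its place relative to all other genes does not. Genes were called measured at a mean count of at least 10, which left 9651. The variation of a gene beyond counting noise is the coefficient of variation between fish after the Poisson part is taken off. Its median was 0.386, with quartiles of 0.263 and 0.570, and 3132 genes (32.5%) were over 0.5. Over all measured genes the median SD of log2 CPM was 0.58.

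The 10 genes that varied least for their level included genes of signalling, translation and cell upkeep. Among genes of at least 50 CPM, the steadiest was LOC100702471, with 976 to 1217 CPM over the 6 fish. The autophagy receptor gene tax1bp1b had 175 to 218 CPM, the kinase gene tyk2 59.8 to 73.6 CPM, and iscua, which serves the building of iron-sulfur clusters, 71.9 to 94.8 CPM. The oxidative stress sensor keap1b had 182 to 199 CPM in 5 fish and 239 CPM in W53. The translation factor gene eif4a2, the membrane protein gene cd63 and the ribosomal protein gene rps9 were also among the 10, with 172 to 241, 130.5 to 168 and 519 to 768 CPM. None of these 8 exceeded a 1.5-fold range between its lowest and highest fish.

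**Figure D4:**
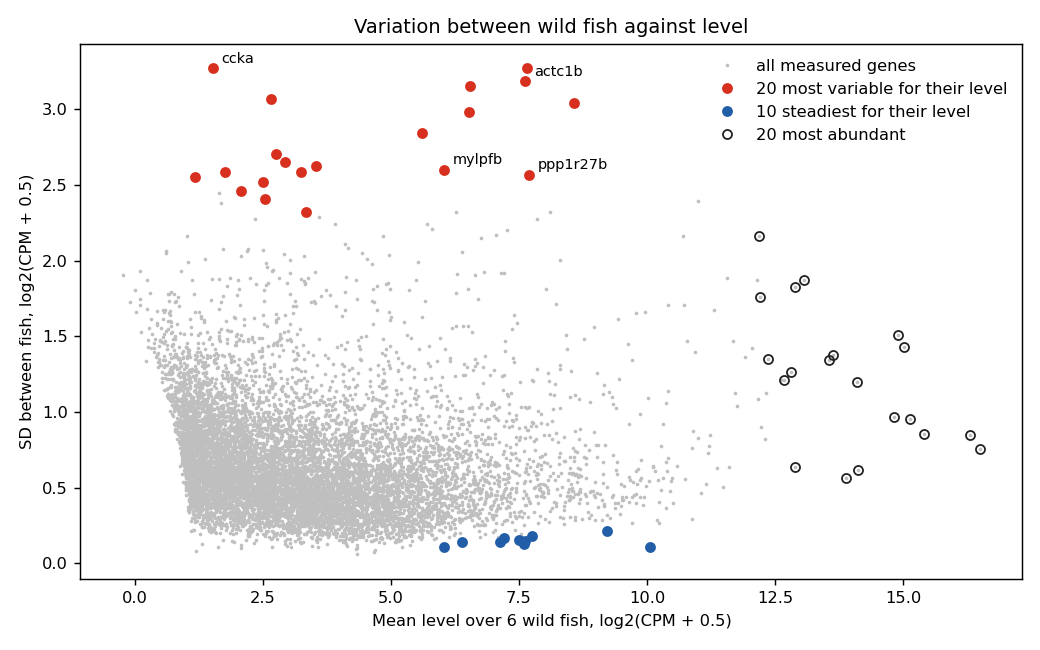
SD between the 6 wild fish of log2(CPM + 0.5) against the mean level on the same scale, with 1 point per measured gene. The 20 most variable genes for their level (red) lie between an SD of 2.32 and 3.27, and the 10 steadiest (blue) between 0.11 and 0.21.

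Groups of genes were then followed across the fish by lists of known function. For each gene the deviation of its log2 level from its own mean over the 6 fish was taken, and a list is given by the median deviation of its members minus that of all measured genes. This difference does not move with the scaling of the libraries. No test was run on a list, and a list that includes genes of unequal behaviour can have a median near 0.

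The fast fibre, coupling and sarcomere lists each had their highest relative median in W63. The same libraries that were low for fast fibre genes, W66 and W70, had the lowest shares of reads in genes (16.4 and 17.7%, against 24.1 to 28.7% in the other 4) and the highest in no annotated feature (14.3 and 19.4%, against 7.93 to 11.1%), and the part of this in the values was not tested. The 13 measured genes of the fast fibre list had a relative median of 1.28 in W63, 0.65 in W68, 0.24 in W72, 0.20 in W53, -1.02 in W66 and -1.24 in W70 (log2), and 9 of the 13 were highest in W63, against 17.7% of all measured genes. Of the 13, 11 were over a variation of 0.5, against 32.5% of all measured genes. Next to genes of like level, their median excess SD of log2 CPM was 0.59. The list shares 3 measured genes with the creatine list below, 2 with the glycolysis list and 1 with the coupling list, so these are not separate groups. Genes of excitation and contraction coupling, which carry the nerve signal to calcium release, had 1.27 in W63 and -0.71 in W66, and 11 of their 15 measured genes were highest in W63. Among them, the calcium store protein gene casq1a had 11057 CPM in W63, 5831 in W68, 5587 in W72, 3736 in W53, 976 in W70 and 930 in W66. The calcium channel subunit gene cacng1a had 1484 CPM in W63 and 179 to 586 CPM in the others, and calmodulin (calm3a) 524 CPM in W63 and 43.0 to 172 CPM in the others.

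Genes of sarcomere assembly had 0.92 in W63, -0.23 in W66 and -0.67 in W70. Of the 28 measured, 16 were highest in W63, against 17.7% of all measured genes, and 6 in W66, against 17%. The thick filament protein gene mybphb had 13590 CPM in W63 and 1785 CPM in W70. Creatine and purine nucleotide enzymes had 1.02 in W63, -0.77 in W66 and -0.73 in W70, and in this list the 2 fish W63 and W68 stood out for gatm, the first enzyme of creatine synthesis. Its levels were 506 CPM in W63 and 257 CPM in W68, against 9.02 to 32.8 CPM in the other 4. Adenylate kinase 1 (ak1) was lowest in W53, with 18.4 CPM against 65.7 to 233 CPM.

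Genes of energy metabolism were highest in W68. Glycolysis and glycogen use had a relative median of 0.75 in W68 and -0.52 in W66, with 12 of 26 measured genes highest in W68, against 11.2% of all measured genes, and 13 of 26 lowest in W66, against 14.4%. The phosphofructokinase gene pfkmb, at the committed step of glycolysis, had 5286 CPM in W68, 4404 in W63, 2448 in W72, 1554 in W70, 1318 in W53 and 198 in W66. Restricted to genes with 1 annotated transcript, the list's median in W68 was 1.21. The nuclear-encoded genes of oxidative phosphorylation had 0.61 in W68 and -0.57 in W70. Of the 77 measured, 44 were highest in W68 and 43 lowest in W70, where 14.5% of all measured genes were lowest. Of the 77, 12 were over a variation of 0.5, and of the 26 glycolytic genes 18, where 32.5% of all measured genes were, a difference that was not tested. All measured genes had a median of 8.33 CPM, against 67.7 CPM in oxidative phosphorylation and 178 CPM in glycolysis. Next to genes of like level, the median excess SD of log2 CPM was -0.02 and 0.45 in these lists. The largest variation of all measured genes, 2.43, was that of an oxidative phosphorylation gene. Complex III subunit uqcrc1 had 154 CPM in W70 and 380 CPM in W68, and the ATP synthase subunit gene atp5pb 179 CPM in W66 and 429 CPM in W68.

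Genes of the ribosome and of the proteasome were highest in different fish. Ribosomal protein genes had a relative median of 0.49 in W63, 0.19 in W68, 0.13 in W66, 0.02 in W53, -0.48 in W70 and -0.52 in W72. Of the 68 measured, 42 were highest in W63, against 17.7% of all measured genes. The 68 were drawn by symbol and include rps6kal, whose symbol is that of a kinase of ribosomal protein S6, not of a ribosomal protein. In W72 and W70, 33 and 23 were lowest, against 13.1% and 14.5% of all measured genes. The members varied little but together, with 2 of 68 over a variation of 0.5, against 32.5% of all measured genes. Next to genes of like level, their median excess SD of log2 CPM was -0.15. Their mean correlation between pairs was 0.65 over the 6 fish, against 0.0015 over all measured genes (a description over the same 6 libraries). The all-gene value is kept near 0 by the scaling. The other lists ran from -0.12 (nerve and Schwann cell genes) to 0.55 (coupling genes), with fast fibre genes at 0.54. The gene rpsa, of the small subunit, had 952 CPM in W72 and 1906 CPM in W63. Subunits of the proteasome, which degrades proteins tagged with ubiquitin, had 0.71 in W72, 0.22 in W53 and -0.50 in W68, and 25 of 37 were highest in W72, against 14.5% of all measured genes. The regulatory subunit gene psmd2 had 211 CPM in W72 and 75.9 CPM in W68.

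**Figure D5:**
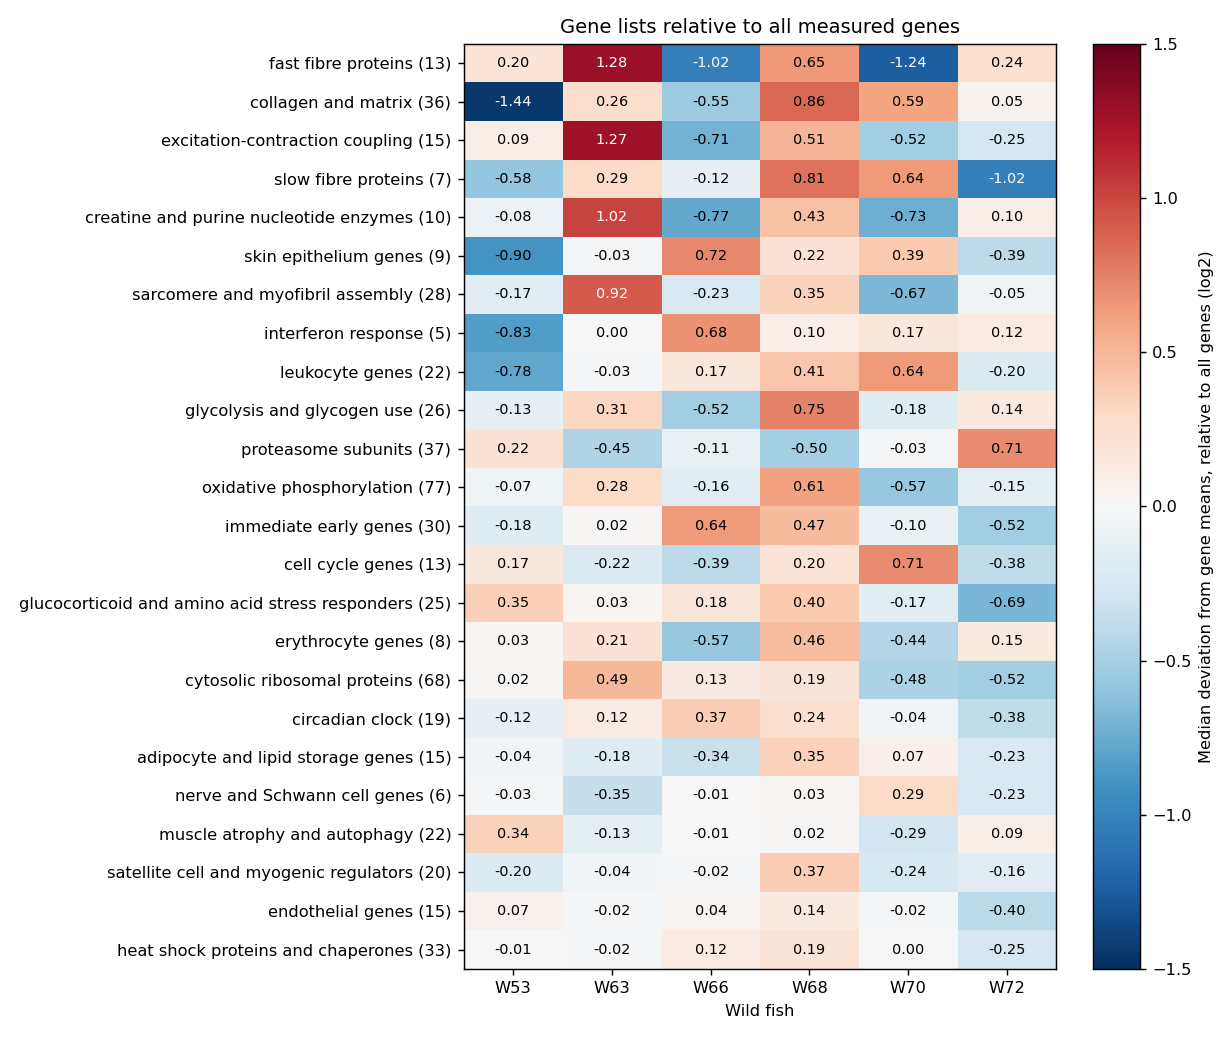
Median log2 deviation of each list's measured genes (their number in brackets) from the genes' own means over 6 wild fish, minus that of all measured genes, with lists ordered by their range. Fast fibre genes run from -1.24 in W70 to 1.28 in W63 and collagen and matrix genes from -1.44 in W53 to 0.86 in W68.

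Connective tissue genes had the widest range after the fast fibre genes among lists with at least 5 measured genes. The 36 measured genes of collagen and matrix had a relative median of -1.44 in W53 and -0.55 in W66, against 0.86 in W68 and 0.59 in W70, and 27 of the 36 were lowest in W53, against 23.3% of all measured genes. Collagen I (col1a2), the main fibre of connective tissue, had 7753 CPM in W70, 6894 in W68, 4763 in W63, 4668 in W72, 260 in W66 and 226 in W53. W53 and W66 lay far below the other 4. The chain col1a1b followed with 22.0 CPM in W53, 34.8 in W66 and 234 to 549 CPM in the others. The matrix protein gene sparc had 65.9 and 132 CPM in W53 and W66, against 521 to 980 CPM. Collagen VI (col6a2) had 43.1 and 136 CPM in the same fish, against 259 to 926 CPM. The 3 genes closest to col1a2 over the 6 fish (r = 0.99 for the third, n = 6 fish, a description only) included fbln5, which serves elastic fibres, with 9.37 CPM in W53, 12.2 in W66 and 34.3 to 52.1 CPM in the others.

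Leukocyte and skin epithelium markers were lowest in W53 as well. Leukocyte genes had a relative median of -0.78 in W53 and 0.64 in W70, with 12 of 22 lowest in W53, against 23.3% of all measured genes, and the summed level of the list was 1148 CPM in W53 and at most 3217 CPM, in W63, with 4 of its 32 genes at 0 in every fish. Among them, the actin bundling protein gene lcp1 had 817 CPM in W53 and 966 to 2529 CPM in the others, and cd74a, the chaperone of MHC class II, 215 CPM in W53 and 335 to 644 CPM in the others. Over the 6 fish lcp1 had 51758 counts and cd74a 16322, and every other member at most 2752. The summed level therefore mostly follows lcp1 and cd74a. In W63, where the sum was highest, the relative median of the list was -0.03. Matrix metalloproteinase genes of the list split the fish in another way: mmp9 had 45.5 CPM in W66, 38.7 in W70 and 3.55 to 10.3 CPM in the other 4, and mmp13a had 25.9 CPM in W68 and 0.627 in W63. Skin epithelium genes had -0.90 in W53 and 0.72 in W66, with 6 of 9 lowest in W53, against the same 23.3%. The summed level of the list was 370 to 1097 CPM, and 4 of its 19 genes were at 0 in every fish. These 4, and the 4 leukocyte genes at 0, all have more than 1 annotated transcript. Genes of this kind were seldom measured, so the zeros are not read as absence. Within the skin list, the keratin gene krt8 had 213 CPM in W53 and 609 CPM in W66. Without W53, whose low values enter each gene's mean, the relative median of this list in W66 was 0.38. Endothelial genes lay close together, between -0.02 and 0.14, apart from -0.40 in W72. What part these cell types had in the values of W53 was not tested. The liver list had 1 of 17 genes measured, and its summed level was 5.92 to 21.2 CPM. Erythrocyte genes had -0.57 in W66 and 0.46 in W68. Nerve and Schwann cell genes, with 6 measured, had -0.35 in W63 and 0.29 in W70, and interferon response genes, with 5 measured, -0.83 in W53 and 0.68 in W66. The members of these lists did not move together, with a mean correlation between pairs of -0.12 and -0.07. Of the 5 interferon genes, 2 were highest and 2 lowest in W66, against 17% and 14.4% of all measured genes. The 7 measured slow fibre genes had -1.02 in W72 and 0.81 in W68, at the low levels given above.

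Genes of lipid handling showed little shared movement, with relative medians of -0.34 to 0.35, but 2 of them had a fish of their own. The lipid carrier gene apoeb had 1043 CPM in W70, 163 in W68, 93.8 in W72, 42.8 in W63, 30.2 in W66 and 9.05 in W53. The triglyceride lipase gene pnpla2 had 390 CPM in W53 and 69.6 to 109 CPM in the others. Cell cycle genes had 0.71 in W70, with 7 of 13 highest there, against 17.2% of all measured genes, and the topoisomerase gene top2a had 14 CPM in W70 and 2.10 to 8.10 CPM in the others. The summed level of all 33 listed genes differed less, with 111 CPM in W70, 108 in W53, 101 in W72 and 63.3 in W66 at the lowest. Counts of the cell cycle genes are low, and with all libraries thinned to the depth of W66 their relative median in W70 was 0.40. Without W66 it was 0.45.

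Genes of rapid and hormonal responses were lowest in W72. Immediate early genes, which are switched on within minutes of a stimulus, had a relative median of 0.64 in W66, 0.47 in W68, 0.02 in W63, -0.10 in W70, -0.18 in W53 and -0.52 in W72, with 14 of 30 lowest in W72, against 13.1% of all measured genes. Without W72 the value in W66 was 0.30. The stress kinase phosphatase gene dusp1 had 1571 CPM in W53, 893 in W68, 839 in W66, 359 in W63, 344 in W70 and 138 in W72. The growth arrest gene gadd45ga had 166 CPM in W72, 455 in W70 and 1187 to 1985 CPM in the other 4. The transcription factor gene jun had 84.5 CPM in W72 and 231 to 563 CPM in the others, and its partner gene fosab 68.1 CPM in W72 and 149 to 295 CPM in the others.

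Responders to glucocorticoids and to amino acid shortage had a relative median of -0.69 in W72 and 0.40 in W68, with 11 of 25 lowest in W72, against 13.1% of all measured genes. The glucocorticoid-induced cochaperone gene fkbp5 had 229 CPM in W72 and 815 to 1394 CPM in the others. The genes closest to it over the 6 fish were the small heat shock protein gene hspb1 and the proline dehydrogenase gene prodha (r = 0.99 for each, n = 6 fish, a description only), with 55.1 and 68.4 CPM in W72. The growth factor binding protein gene igfbp1a had 4.51 CPM in W72, 85.2 in W53 and 21.5 to 47.8 CPM in the other 4. The glutathione-degrading enzyme gene chac1 went another way, with 7785 CPM in W63, 3234 in W72, 1466 in W68, 1106 in W53, 491 in W66 and 318 in W70. Among heat shock genes, hspa1b had 6.92 CPM in W72 and 311 CPM in W63, while the list as a whole stayed within -0.25 and 0.19.

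The atrophy list had 0.34 in W53 and -0.29 in W70, with 10 of 22 measured genes highest in W53, against 22.5% of all measured genes. Its most abundant member, the ubiquitin ligase gene fbxo32 (atrogin-1), had 2970 CPM in W53, 2968 in W72, 1444 in W66, 1270 in W68, 1167 in W70 and 346 in W63. W53 and W72 stood above the other 4, and W63 was the lowest. Clock genes had -0.38 in W72 and 0.37 in W66, and the clock repressor gene ciarta had 69.9 CPM in W72, 133 and 143 CPM in W70 and W53, and 347.8 to 401.3 CPM in W68, W66 and W63. The labels do not give the time of day of sampling. Myogenic regulators had 0.37 in W68 and between -0.24 and -0.02 in the other 5 fish.

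Some genes were high or low in a single fish. Of the 6116 genes of at least 5 CPM, 34 (0.556%) were at least 4-fold above every other fish in 1 fish, of which 14 in W63, 7 each in W53 and W66, 4 in W70, 2 in W72 and 0 in W68. The clearest was ccka, which encodes the peptide cholecystokinin, a hormone of gut and nerve. It had 282 CPM in W63, from 1352 counts, and 0.210 to 1.06 CPM in the other 5 fish, each under 10 counts, so that without W63 it would not count as measured. A long noncoding RNA, LOC102077293, was closest to it, with 43.9 CPM in W63 and 0.805 to 1.25 CPM in the others, and after it chmp1a, an endosomal sorting gene, with 119 CPM against 34.0 to 44.1 CPM, and the actin capping gene capza1a, with 26.5 CPM against 7.08 to 10.6 CPM. The signalling regulator gene rgs16, chosen after its values were seen, had 69.6 CPM in W63 and 1.09 to 3.17 CPM in the others. LOC112841841 had 73.9 CPM in W72 and 0.156 to 1.45 CPM in the others. The minimum of 5 CPM is on the mean over all fish, so a gene can pass it through the 1 fish where it is high. Like ccka, the genes LOC102077293, rgs16 and LOC112841841 were under 5 CPM in every other fish. The number of genes at least 4-fold above every other fish, and its split by fish, are therefore partly set by this minimum.

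The number at least 4-fold below every other fish was 105 of 6116 (1.72%), of which 63 in W53, 19 in W72, 8 in W63, 6 each in W66 and W70 and 3 in W68. Of the 63 in W53, 35 were short noncoding RNA genes. Of all 9651 measured genes, before the minimum of 5 CPM, 65 were small nucleolar, 10 small nuclear and 5 other short noncoding RNA genes. The phosphatase subunit gene ppp1r27b had 5.79 CPM in W72 and 239 to 882 CPM in the other 5 fish. It was among the 20 most variable genes through W72, as its SD of log2 CPM was 2.57 over the 6 fish and 0.78 without W72. The small nucleolar RNA LOC112842548 had 1.85 CPM in W70 and 19.8 CPM in W53, against 142 to 607 CPM in the other 4, and an SD of 3.16, or 1.98 without W70. Of the other fish, 19.0% of all measured genes were lowest in W63 and 15.7% in W68.

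Relations between single genes were tested for 12 regulators and markers in all 66 pairs, by exact permutation over the 720 pairings of the 6 fish, two-sided. The smallest exact permutation p that 6 fish allow by Pearson's r is 0.00139, or 0.0917 after adjustment for a pair on its own. By Spearman's rho it is larger, so no single pair could pass 0.05 by either. None of the 66 passed after Benjamini-Hochberg adjustment over the 66 pairs, with a smallest adjusted p of 0.395 by the exact test, and 6 had an unadjusted p under 0.05 by Pearson's r and 1 by Spearman's rho. The smallest exact p, 0.0139, was that of atf3 and jun, a pair of stress-induced transcription factor genes (r = 0.94, rho = 0.77 with exact permutation p = 0.103, adjusted p = 0.395 and 0.754, n = 6 fish). Without W70 and W72, the fish farthest from the median of atf3, r was 0.84 over 4 fish. The gene atf3 had 22.7 CPM in W72 and 100 to 172 CPM in the other 5 fish. The pair of mmp9 and tmem38a, a channel gene of the calcium store, had r = -0.95 (rho = -0.77, exact permutation p = 0.0153 and 0.103, n = 6 fish), and r was -0.54 without W66 and W70, so that the relation rests on those fish. For jun and trib3, a pseudokinase gene, r was 0.89 and rho 0.94 (exact permutation p = 0.0208 and 0.0167, n = 6 fish), and r was 0.89 without W66 and W72.

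Across all 9651 measured genes the libraries had a Spearman rho of 0.771 to 0.904 with each other, as a description across genes. W53 was the least like the others, with 0.771 to 0.834.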

How the data were processed

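The authors deposited raw counts of reads, 1 file for each fish, with a row for each of 80392 annotated transcripts. The submitters' processing notes name Trimmomatic 0.33, STAR, HTSeq and edgeR; no source used here names their settings or the genome build. The 5 summary lines (7.93 to 19.4% no feature, 11.5 to 15.7% ambiguous and 45.2 to 57.7% not unique) were left out of the totals. Counts were added per gene. Names, classes and gene order came from the RefSeq gene table of O_niloticus_UMD_NMBU, which holds 42607 of the 42609 genes, and product names of genes without a symbol from the paper's supplementary tables.

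Shares are percent of a fish's gene counts. CPM are per scaled total (trimmed mean of M-values over the 6 wild libraries, Python 3.11.15 with NumPy 2.4.6 and pandas 2.3.3), with a pseudocount of 0.5 before log2. A count of 0 allows up to 3 counts, or 0.396 to 0.629 CPM, for counting error only. The functions were tested on simulated data. Genes to name were drawn by rule: the 20 highest in mean share, the 20 with the largest SD above the running median of genes of like level (at least 5 CPM), the 10 with the smallest (at least 50 CPM), the 3 highest and 2 most variable of each list, the 12 of the pair tests (exact permutation, SciPy 1.17.1) and the 3 most like a gene singled out, with at most 3 named by number alone. Not every gene drawn is named, and rgs16 was added after its values were seen. Among the stress responders, txnipa and cebpd, with 68137 and 39592 counts over the 6 fish, are not named. The gene fkbp5 of that list, with 32446 counts, was singled out. In oxidative phosphorylation, cox5b2, with 14121 counts, is not named. The members, the 25 lists and the tests were chosen with earlier results of these data known. Scaling, filters, pseudocounts, depth and single fish were varied in turn.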

Additional observations from a re-analysis of the deposited data

Results flagged for a closer look

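Among 149 values or lists followed over the 6 fish, 20 had 1 fish set apart from the nearest other by a part of the whole range above the 95% limit of Dixon's test for 6 samples, which chance exceeds in about 1 in 20 groups. Genes were tested on the log2 scale. The genes were chosen for their variation or likeness in these fish, so the number is a description.

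In W72, 8 values stood apart. The fish was low for ppp1r27b (5.79 CPM), atf3 (22.7 CPM), ddit4, a brake on growth signalling (19.6 CPM), fkbp5 (229 CPM), prodha (68.4 CPM) and hspb1 (55.1 CPM), and high for LOC112841841 (73.9 CPM). Its endothelial genes had a relative median of -0.40 (log2), below the other fish.

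In W63, ccka (282 CPM), rgs16 (69.6 CPM), LOC102077293 (43.9 CPM), chmp1a (119 CPM) and capza1a (26.5 CPM) stood above the other fish. LOC102077293, chmp1a and capza1a were chosen for their likeness to ccka, and rgs16 after its values were seen, so these add no support to ccka.

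In W53, LOC100690064 (1819 CPM) and the small nucleolar RNAs LOC112847244 (436 CPM) and LOC112847245 (9.52 CPM) stood below the others, and pnpla2 (390 CPM) and keap1b (239 CPM) above. In W68 the myogenic regulators had a relative median of 0.37 (log2), above the other fish, and in W70 actn3b had 3327 CPM, below the others.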

How the results depend on the processing

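Totals without scaling factors gave 5160 genes over a variation of 0.5, against 3132, and changed the percent of genes highest in a fish to 2.49 in W63, 29.4 in W66, 2.00 in W68, 42.1 in W70 and 6.46 in W72, and the genes at least 4-fold above every other fish to 73. With a mean count of at least 1 or 50, 12408 and 1140 genes were over 0.5. These filters also change the number of genes tested, so the counts are not a measure of variation. The median variation was 0.527 and 0.346 under them, against 0.386. Leaving out 1 fish at a time gave 2481 to 3455 genes over 0.5, a median variation of 0.346 to 0.397 and top 10 shares of 40.3 to 44.9%. Median-of-ratios scaling, thinning to the smallest total and genes with 1 annotated transcript moved none of these counts by over 1.5 times. The pair tests gave 0 adjusted calls under each of 10 alternatives, with smallest adjusted p of 0.0917 to 0.825, but a test over so few fish could pass no single pair, so this says nothing of stability. With a pseudocount of 5 the SD of 8 named variable genes fell by over 1.5 times. The alternatives on lists, the myosin set, short noncoding RNA and single fish were chosen after seeing the data. No SD could be had without W63 for ccka and without W72 for LOC112841841, which then fell under the count minimum. No paired analysis was possible because the numbers pair wild with domesticated fish, which were not analysed here. Depth limits the low genes: W66, the shallowest library, had 3395622 gene counts. Near-identical copies, such as those of myosin, may share reads.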

Other observations

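Some neighbouring genes with no symbol had low values in the same fish at another place of the genome. Between epha5 and smad2 on linkage group 7 the gene table lists a run of 8 protein-coding genes, a set chosen after its values were seen, and 5 of them were measured. The 5 had 0.624 to 2.34 CPM in W53 and 0 to 1.13 CPM in W72. In W63 the 5 measured genes had 6.89 to 42.4 CPM, in W68 4.36 to 47.4 CPM and in W70 15.04 to 56.1 CPM, and in W66 3.36 to 21.6 CPM. The count minimum is on the mean, so a gene can pass it through the fish where it is high. LOC109203022 of the same run, which was not measured, went another way. It had 17 counts in W63, 9 in W66 and 0 in W68 and W70. A gene near the row of myosin genes on linkage group 4, LOC100705031, had 893 CPM in W72, 183 in W63, 103 in W66 and 4.88 to 12 CPM in the other 3 fish. Reads shared by similar neighbours could enter both sets of values, and this was not tested.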
